A study of Mus musculus with 6 samples.

Results

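The genes described here are 10 genes of protein shedding, the ADAM proteases Adam8, Adam9, Adam10, Adam15, Adam17, Adam19 and Adam28, the iRhom genes Rhbdf1 and Rhbdf2, and the inhibitor gene Timp3, out of 18506 genes tested. They were listed by name, selected on earlier results of the same libraries, that is, on their levels and fold changes in WT and Drp1 KO macrophages, so their differences between the genotypes are given as a description and without a p-value. RNA was measured in bone marrow-derived macrophages (BMDMs), cells grown from mouse marrow in medium with L929-cell supernatant, at day 7 and after 8 h of hypoxia with serum starvation (HSS), that is, endothelial starvation medium without serum at 2.1% oxygen. There were 3 WT and 3 Drp1 KO libraries, all of them from cells under HSS, so no library shows the genes without it. By the methods of the study both genotypes carried 1 copy of LysM-Cre, a Cre recombinase driven by the lysozyme M promoter, which is active in monocytes, macrophages and neutrophils. WT mice had intact Drp1 alleles (LysM-Cre+/- Drp1+/+) and Drp1 KO mice had floxed ones (LysM-Cre+/- Drp1 fl/fl). Marrow of 2 mice per genotype was pooled for BMDM cultures, and the study counts 3 BMDM samples per genotype for RNA-seq without saying whether each came from a pool of its own, so the errors below measure the spread between these libraries. By the methods, mice of both sexes aged 8 to 12 weeks were used, and the labels give no age for the mice behind these cultures.

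ADAM proteases sit in the membrane and cut the outer part of other membrane proteins close to the cell surface, which releases cytokines, growth factors and adhesion molecules and shortens receptor signalling. ADAM17 releases TNF and needs an iRhom protein to leave the endoplasmic reticulum and mature, with iRhom2 (Rhbdf2) the main partner in myeloid cells and iRhom1 (Rhbdf1) in many other tissues. ADAM10, escorted by tetraspanins in place of iRhoms, cuts Notch receptors and the amyloid precursor protein, and TIMP3 inhibits both enzymes. ADAM8, ADAM9, ADAM15, ADAM19 and ADAM28 cut adhesion molecules, receptors and matrix proteins, and several of them bind integrins.

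The catalytic centre of an ADAM protease is a zinc ion held by 3 histidines beside a glutamate. The coding stretch of this centre is shown for the 7 ADAM members because it is what marks them as proteases, while iRhoms and TIMP3 have none. It was found in the Ensembl canonical transcript of each gene (GENCODE vM39, GRCm39) as codons for histidine, glutamate, any residue, glycine, histidine, any 2, glycine, any 2, histidine and aspartate. Capitals mark the codons of the 3 histidines and the glutamate, and each stretch is 36 bases, 5′ to 3′ on the coding strand. The canonical transcript of Adam15 was not among the transcripts quantified, and that of Adam28 had 0 counts in all 6 libraries.
Adam8: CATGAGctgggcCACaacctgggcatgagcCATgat
Adam9: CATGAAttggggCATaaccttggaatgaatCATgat
Adam10: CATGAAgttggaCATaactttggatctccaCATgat
Adam15: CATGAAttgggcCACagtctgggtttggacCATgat
Adam17: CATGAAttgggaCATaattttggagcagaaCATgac
Adam19: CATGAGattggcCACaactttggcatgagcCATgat
Adam28: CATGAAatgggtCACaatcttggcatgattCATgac

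All 7 stretches are exonic and coding. That of Adam8 lies at chr7:139567803-139567838 on the minus strand in exon 11, that of Adam9 at chr8:25480339-25480374 (minus, exon 11), and that of Adam15 at chr3:89252084-89252119 (minus, exon 11). That of Adam17 lies at chr12:21386730-21386765 (minus, exon 11), that of Adam19 at chr11:46015877-46015912 (plus, exon 11), and that of Adam28 at chr14:68870613-68870648 (minus, exon 11). The stretch of Adam10 is split by an intron between exons 9 and 10, so its ends span chr9:70661578-70668870 on the plus strand. The canonical transcripts of Rhbdf1, Rhbdf2 and Timp3 hold no such stretch.

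The libraries held 23389488 to 32231206 estimated counts each. CPM denotes counts relative to the TMM-normalized library size. Fold changes are Drp1 KO over WT on the log2 scale from edgeR's quasi-likelihood fit, with their standard error (SE). A gene is called at a Benjamini-Hochberg adjusted p under 0.05 over all genes tested. Of all genes tested, 621 were called (3.36%), 424 higher (2.29%) and 197 lower (1.06%) in Drp1 KO BMDMs. Dnm1l, which encodes DRP1, was at 72.7, 69.9 and 75.1 CPM in WT libraries 1 to 3 and at 58.7, 60.7 and 66.3 CPM in Drp1 KO libraries 1 to 3. Its groups did not overlap, in the direction of the labels, with a log2 fold change of -0.23 (SE 0.0921, adjusted p = 0.248, edgeR, 0.0738 to 0.519 over the other settings tried). Transcript counts cannot place reads on the floxed part of the gene. Libraries 1 of both genotypes stood apart from the others on the second principal component (29.5% of the variance), and libraries with the same number deviated together, as did WT library 2 with Drp1 KO library 3. A fit with the number as a block is therefore named where it changes a call. In that fit 2212 genes were called (12.0%).

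The macrophage markers were high in every library, with a sum over 7 genes of 4291 to 4730.0 CPM in WT and 3900.4 to 4545 CPM in Drp1 KO BMDMs, led by Adgre1 and Itgam. Of the 7, Fcgr1 rose (log2 fold change 1.34, adjusted p = 0.000322) and Csf1r and Mertk fell. The 11 neutrophil markers summed to 92.5 to 101 CPM in WT and 121 to 226 CPM in Drp1 KO BMDMs, mostly Mmp8 and S100a9, with Ly6g at 0 in all 6 libraries and none of the 8 tested called (5 had an unadjusted p under 0.05, 2 were called by DESeq2 and 0 by limma-voom). The fitted fold changes of all 8 were positive (median 1.16 on the log2 scale), and with the replicate block 5 were called, S100a8, S100a9, Ltf, Ngp and Mmp8. The 6 lymphocyte markers summed to 5.68 to 7.98 CPM and 13.6 to 21.3 CPM, with Cd3d not called and Igkc raised from 1.53 to 2.02 CPM to 8.52 to 16.1 CPM (log2 fold change 2.84, adjusted p = 0.000399). The 5 endothelial markers summed to 25.7 to 30.0 CPM and 38.7 to 41.7 CPM, with Cldn5 at 0, Pecam1 not called and Kdr raised (log2 fold change 0.94, adjusted p = 0.0144, a call lost on leaving out WT library 2 or 3). Dendritic cell markers (7 genes led by Zbtb46 and Xcr1, 3.60 to 6.04 CPM and 2.32 to 4.59 CPM, Cd209a at 0) and fibroblast markers (9 genes led by Thy1 and Col1a1, 13.9 to 22.8 CPM and 13.2 to 17.7 CPM) overlapped between the groups, and none of either list was called, nor by DESeq2 or limma-voom (1 and 0 with an unadjusted p under 0.05). These are bulk libraries, in which fewer cells of a type and less RNA per cell cannot be told apart.

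All 10 genes passed the filter of at least 10 counts. In Drp1 KO BMDMs 8 had a lower and 2 a higher fitted level (Adam28, among the 8, turned to 0.028 on the log2 scale with length-scaled counts), with a median log2 fold change of -0.29, where the median of all genes tested was 0.0046. Adam9, Adam17 and Adam19 were called, all lower, against 3.36% of all genes called and 1.06% called lower. Rhbdf1 was the fourth gene whose WT and Drp1 KO libraries did not overlap, again lower, against 21.9% of all genes not overlapping, 11.7% higher and 10.3% lower. With the cut-offs of the study (a log2 fold change beyond 0.32 in either direction, at an unadjusted p under 0.05), applied here to edgeR's values where the study used DESeq2, these 4 genes were past the threshold, against 12.7% of all genes, 7.19% higher and 5.48% lower. With the replicate block 6 were called, adding Adam15 and Rhbdf1 (lower) and Rhbdf2 (higher), against 12.0% of all genes, 6.73% higher and 5.22% lower. Since the 10 were listed with this contrast known, nothing is read from these counts.

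**Figure D1:**
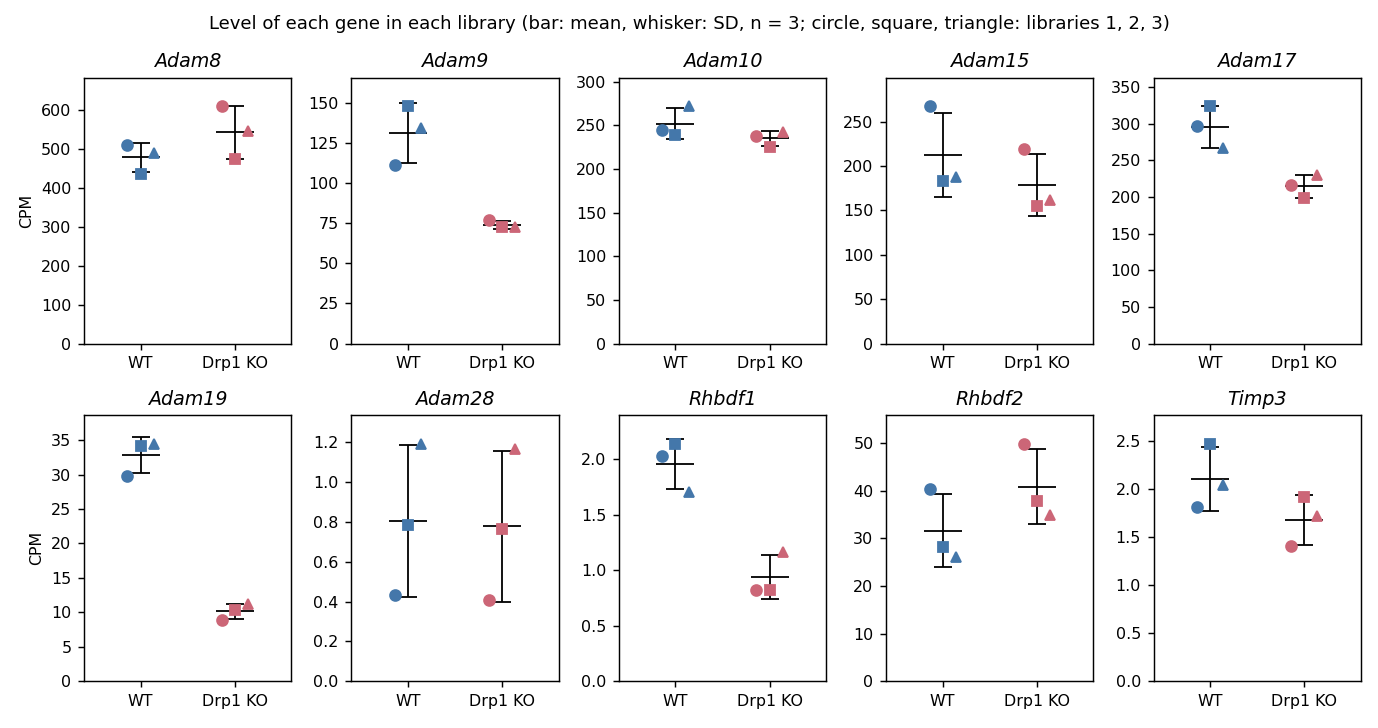
CPM of each of the 10 genes in each library, on axes from 0, with WT in blue and Drp1 KO in red (circle, square and triangle for libraries 1, 2 and 3; long bar, mean; whisker, SD, n = 3). The groups lie apart for Adam9, Adam17, Adam19 and Rhbdf1 and overlap for the other genes.

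Adam17 (ENSMUSG00000052593), the TNF-releasing enzyme, lies on chromosome 12 from 21373510 to 21423672 on the minus strand. It was at 296, 324 and 267 CPM in WT libraries 1 to 3 and at 217, 198 and 230 CPM in Drp1 KO libraries 1 to 3. Every Drp1 KO library was below every WT library, and the lowest WT library, the third, stood closest to the highest Drp1 KO library, also the third. The log2 fold change was -0.46 (SE 0.105), which is 1.38-fold lower. The call was made in 9 of 16 other settings and was lost when any single library was left out (-0.54 to -0.40) and with length-scaled counts (-0.35). Adam17 is also among the genes the study chose to display from these libraries.

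Rhbdf2 (ENSMUSG00000020806, chromosome 11, 116488839 to 116517845, minus), which encodes iRhom2, was at 40.3, 28.3 and 26.1 CPM in WT and at 49.8, 37.9 and 34.9 CPM in Drp1 KO libraries 1 to 3. The groups overlapped through WT library 1, which stood above Drp1 KO libraries 2 and 3. Within each number the Drp1 KO library was the higher, by 0.31, 0.42 and 0.42 on the log2 scale. The fitted log2 fold change was 0.37 (SE 0.182), in the opposite direction to Adam17, and the gene was called with the replicate block and without both libraries numbered 1 (0.42), and in none of the other 14 settings.

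Rhbdf1 (ENSMUSG00000020282, chromosome 11, 32158700 to 32172947, minus), which encodes iRhom1, was scarce, with 47, 57 and 50 estimated counts in WT and 18, 27 and 38 in Drp1 KO libraries. This gave 2.03, 2.14 and 1.70 CPM in WT and 0.817, 0.825 and 1.17 CPM in Drp1 KO libraries 1 to 3. Over all transcripts the libraries did not overlap, and the log2 fold change was -1.05 (SE 0.282), 2.07-fold lower. Over protein-coding transcripts only it was -1.72, but there the groups overlapped. Per transcript length (TPM, described below) the lowest WT library was at 0.221 and the highest Drp1 KO library at 0.557. Protein-coding transcripts held 28.2% of the gene's counts in WT library 1 and 2.00% in Drp1 KO library 3. Rhbdf1 was called by DESeq2 and with the replicate block. It was not called in the other 14 settings, protein-coding transcripts only among them.

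Adam10 (ENSMUSG00000054693, chromosome 9, 70586221 to 70687511, plus), the protease of Notch receptors, was at 245, 239 and 272 CPM in WT and at 237, 225 and 242 CPM in Drp1 KO libraries 1 to 3. The groups overlapped and the log2 fold change was -0.10 (SE 0.093), with a range of -0.15 to -0.05 when a library was left out. It was called in none of the 16 other settings.

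Adam19 (ENSMUSG00000011256, chromosome 11, 45946775 to 46038172, plus), a protease known to cut neuregulin and to be needed in heart development, had the largest fold difference of the 10 genes. It was at 29.8, 34.1 and 34.4 CPM in WT and at 8.94, 10.4 and 11.2 CPM in Drp1 KO libraries 1 to 3. The lowest WT library was far above the highest Drp1 KO library, and the ratios within each number were alike (-1.73, -1.72 and -1.63 on the log2 scale). The log2 fold change was -1.69 (SE 0.125), 3.22-fold lower, and it was called in all 16 other settings.

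Adam9 (ENSMUSG00000031555, chromosome 8, 25439626 to 25507096, minus), a protease that also binds integrins, was at 111, 148 and 135 CPM in WT and at 76.7, 72.8 and 72.5 CPM in Drp1 KO libraries 1 to 3. The Drp1 KO libraries lay close together (SD 2.34 CPM) and the WT libraries were more spread (SD 18.7 CPM), with no overlap. The log2 fold change was -0.83 (SE 0.114), 1.77-fold lower, and it was called in all 16 other settings, with -0.93 to -0.75 when a library was left out. Fibroblasts also express Adam9 and Adam19, and the sum of the fibroblast markers was lower in Drp1 KO within each number (13.9 against 13.2 CPM, 22.8 against 15.6 CPM and 18.7 against 17.7 CPM), with 7 of the 8 tested markers negative. The markers that led this sum changed sign in other settings. Thy1 was at 3.11 on the log2 scale over protein-coding transcripts only, and Col1a1 at 0.12 without both libraries numbered 1. The part of the fibroblast markers in the results of Adam9 and Adam19 was not tested.

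Adam15 (ENSMUSG00000028041, chromosome 3, 89245846 to 89257511, minus), an integrin-binding ADAM, was at 267, 183 and 187 CPM in WT and at 219, 155 and 161 CPM in Drp1 KO libraries 1 to 3. Libraries 1 were the highest of each group and the groups overlapped. The Drp1 KO library was the lower within each number, by -0.29, -0.24 and -0.21 on the log2 scale, and the log2 fold change was -0.25 (SE 0.172), called only with the replicate block. Without WT library 1 it was -0.06.

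Adam8 (ENSMUSG00000025473, chromosome 7, 139558845 to 139572475, minus), a leukocyte protease with adhesion molecules among its substrates, was at 508, 435 and 489 CPM in WT and at 609, 473 and 544 CPM in Drp1 KO libraries 1 to 3. The groups overlapped, with Drp1 KO the higher within each number and a log2 fold change of 0.18 (SE 0.116), called in none of the 16 other settings. Neutrophils express Adam8 as well. In WT libraries 1 to 3 the neutrophil markers summed to 92.8, 92.5 and 101 CPM, and in Drp1 KO libraries 1 to 3 to 196, 121 and 226 CPM, so the sum, like Adam8, was the higher in Drp1 KO within each number. The part of these markers in the result was not tested.

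Adam28 (ENSMUSG00000014725, chromosome 14, 68843476 to 68893291, minus), best known from lymphocytes, was at the edge of detection with 10, 21 and 35 counts in WT and 9, 25 and 38 in Drp1 KO libraries. Its level was 0.431, 0.787 and 1.19 CPM in WT and 0.409, 0.764 and 1.17 CPM in Drp1 KO libraries 1 to 3. The spread within each group was far wider than the difference between them (log2 fold change -0.03, SE 0.475, and -0.25 over protein-coding transcripts only). Of the 5 lymphocyte markers tested 3 had a positive and 2 a negative fold change (median 0.15 on the log2 scale), and Igkc was the one called. The part of these markers in the result was not tested.

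Timp3 (ENSMUSG00000020044, chromosome 10, 86136236 to 86185371, plus) was also scarce, at 1.81, 2.47 and 2.04 CPM in WT and 1.41, 1.92 and 1.72 CPM in Drp1 KO libraries 1 to 3. The groups overlapped, with a log2 fold change of -0.32 (SE 0.250), called in none of the 16 other settings. Fibroblasts and endothelial cells are richer sources of Timp3, and the summed endothelial markers were higher and the summed fibroblast markers lower in Drp1 KO BMDMs within each number. The leading fibroblast markers Thy1 and Col1a1 changed sign in other settings, as given above. The part of the fibroblast and endothelial markers in the result was not tested.

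**Figure D2:**
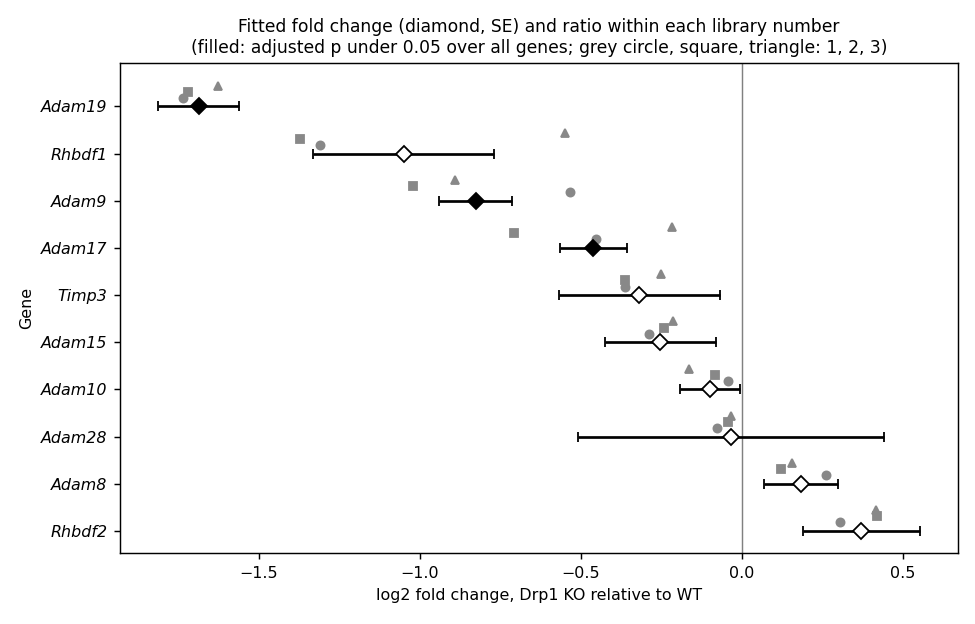
Fitted log2 fold change of each gene, Drp1 KO relative to WT (diamond, with SE; filled where the adjusted p over all genes was under 0.05), and the log2 ratio of Drp1 KO to WT within each library number (grey circle, square and triangle for 1, 2 and 3). The fitted values are negative for 8 genes and positive for Adam8 and Rhbdf2, and that of Adam28 is small beside its SE.

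Levels of different genes were compared per length, as TPM, which divides counts by transcript length, summed over the transcripts of each gene. In WT BMDMs Adam15 (233 ± 42.2 TPM, SD, n = 3) and Adam8 (217 ± 27.2 TPM) came first and overlapped. Adam17 (111 ± 6.24 TPM) and Adam10 (95.8 ± 11.4 TPM) followed, also overlapping, and then Adam9 (52.7 ± 6.87 TPM). Rhbdf2 (12.2 ± 3.06 TPM) and Adam19 (7.14 ± 0.850 TPM) did not overlap with each other or with Adam9. The lowest were Timp3 (1.11 ± 0.324 TPM), Rhbdf1 (0.988 ± 0.302 TPM) and Adam28 (0.445 ± 0.219 TPM), of which Timp3 and Rhbdf1 overlapped. In Drp1 KO BMDMs Adam8 (230 ± 25.3 TPM) came before Adam15 (170 ± 33.1 TPM), which overlapped with it, and Adam10 (84.1 ± 4.92 TPM) overlapped with Adam17 (82.4 ± 6.82 TPM). Adam9 was at 30.0 ± 0.239 TPM, Rhbdf2 at 13.7 ± 2.59 TPM and Adam19 at 2.35 ± 0.465 TPM.

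The place of Adam15 rested on a short transcript. Adam15-212, of 418 bases and with no defined coding sequence, took a mean of 13.5% of the gene's estimated counts in WT and 12.4% in Drp1 KO libraries, but 59.0% to 65.2% of its TPM, since TPM divides by length. Over protein-coding transcripts alone Adam15 was at 71.7 ± 15.6 TPM in WT and 57.8 ± 9.79 TPM in Drp1 KO BMDMs, below Adam8 (191 ± 18.7 and 203 ± 24.7 TPM) and next to Adam17 (96.4 ± 7.42 and 65.8 ± 7.32 TPM) and Adam10 (88.5 ± 11.8 and 79.3 ± 6.16 TPM).

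**Figure D3:**
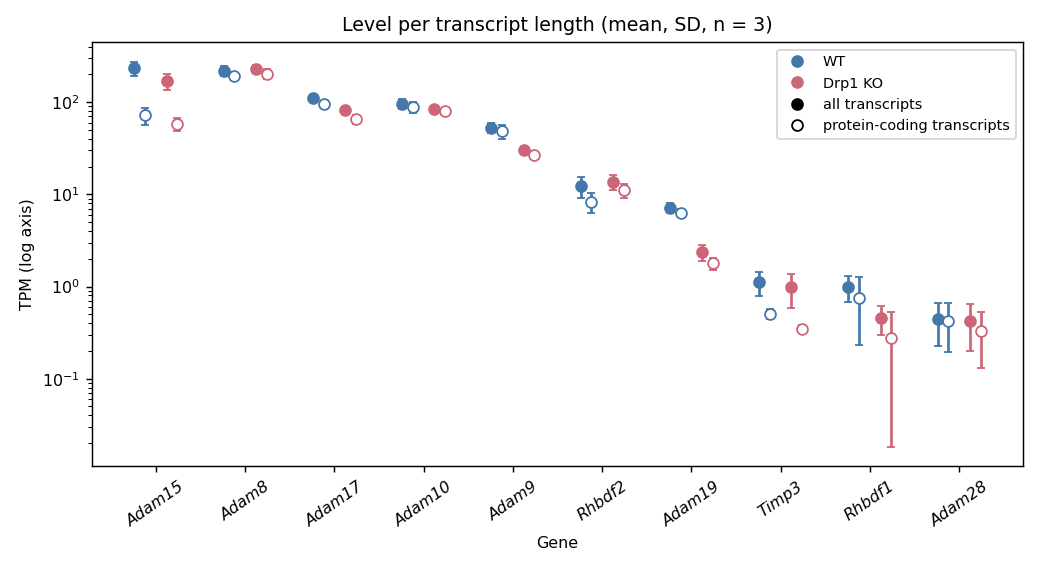
Level per transcript length of the 10 genes on a log axis of TPM, in the order of the WT means (WT in blue, Drp1 KO in red; filled, all transcripts; open, protein-coding transcripts only; mean and SD, n = 3). Adam15 is the gene whose place changes most, from 233 to 71.7 TPM in WT BMDMs, and the error bars are widest on this axis among the scarce genes Timp3, Rhbdf1 and Adam28.

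The transcript classes of each gene are given by share of its estimated counts, without a test. Of 30 classes with counts, 4 did not overlap between the genotypes, against 14.2% of the 27233 classes of all genes tested with counts in at least 2 classes, so the members' count was near the background. In Adam8, Adam9, Adam10 and Adam19 protein-coding transcripts took 91.8% to 99.0%. Adam8 divided mostly between Adam8-201 (59.2% to 66.4%) and Adam8-202 (28.8% to 35.5%), in either genotype. Adam17 had 4 transcripts marked for nonsense-mediated decay, which took a mean of 6.51% in WT and 6.48% in Drp1 KO libraries, and a transcript with no defined coding sequence that took 0% to 0.228% and 0.255% to 1.04%, apart between the genotypes. Of the classes of Rhbdf2, the retained-intron and protein-coding shares lay apart between the genotypes. Its retained-intron transcript Rhbdf2-203 took 13.9% to 17.2% in WT against 9.67% to 11.6% in Drp1 KO libraries, and its protein-coding transcripts 79.0% to 82.6% against 87.7% to 88.7%. The protein-coding share of Adam15 ran from 81.8% to 84.4% among WT and from 84.6% to 85.4% among Drp1 KO libraries, and its other classes overlapped. Counting protein-coding transcripts only, the log2 fold change of Rhbdf2 was 0.49. For Rhbdf1 the protein-coding share ran from 28.2% to 92.6% among WT and from 2.00% to 82.1% among Drp1 KO libraries, so the division of its few counts among transcripts did not repeat between libraries.

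**Figure D4:**
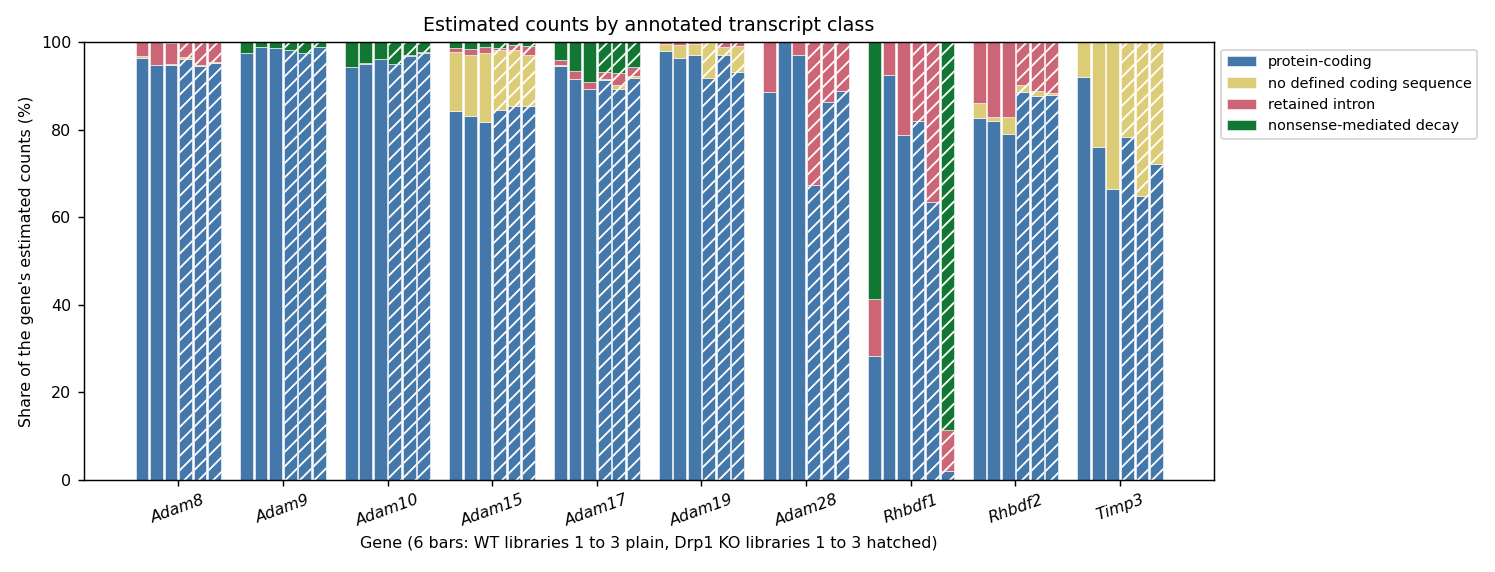
Share of each gene's estimated counts in percent by annotated transcript class, with 6 bars per gene for WT libraries 1 to 3 (plain) and Drp1 KO libraries 1 to 3 (hatched). Adam15 and Timp3 carry transcripts with no defined coding sequence, the retained-intron share of Rhbdf2 is smaller in the Drp1 KO libraries, and the bars of Rhbdf1 differ from library to library.

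Proteins that ADAM10 or ADAM17 are known to shed were read from a list of 42 genes, of which 38 were tested. Of these 7 were called (18.4%, against 3.36% of all genes), 3 higher and 4 lower in Drp1 KO BMDMs, and the median log2 fold change of the list was -0.02, next to 0.0046 for all genes. Aplp2, a relative of the amyloid precursor gene, fell from 1996, 2032 and 1904 CPM to 1290, 1227 and 1414 CPM (log2 fold change -0.59, SE 0.100, adjusted p = 0.0111, edgeR). Mertk, a receptor for dying cells, fell from 231, 244 and 272 CPM to 157, 182 and 181 CPM (-0.52, SE 0.104, adjusted p = 0.0236). Csf1r, the receptor for macrophage colony-stimulating factor, fell from 996, 920 and 944 CPM to 735, 576 and 688 CPM (-0.52, SE 0.111, adjusted p = 0.0340), a call lost with length-scaled counts (-0.30, adjusted p = 0.210, edgeR) and on leaving out any WT library or Drp1 KO library 2 or 3 (adjusted p 0.0635 to 0.133).

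Vcam1, an adhesion molecule, fell from 110, 46.4 and 41.2 CPM to 23.9, 24.1 and 22.0 CPM (log2 fold change -1.49, SE 0.312, adjusted p = 0.0305, edgeR), where WT library 1 stood far above the other WT libraries and the log2 fold change was -0.91 once it was left out. In the other direction, Csf1, the ligand of Csf1r, rose from 13.5, 12.7 and 12.9 CPM to 20.9, 20.3 and 17.2 CPM (0.58, SE 0.121, adjusted p = 0.0315). Havcr2, which encodes the receptor TIM-3, rose from 29.3, 26.0 and 31.3 CPM to 39.5, 42.8 and 48.8 CPM (0.60, SE 0.117, adjusted p = 0.0226). F11r, which encodes a junctional adhesion molecule, rose from under 1 CPM in each WT library to 1.92 to 2.04 CPM (1.56, SE 0.311, adjusted p = 0.0240). Csf1r and Mertk are also on the macrophage marker list.

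Tnf, the best known ligand released by ADAM17, was at 10.7, 12.9 and 9.06 CPM in WT and 11.3, 11.9 and 12.6 CPM in Drp1 KO BMDMs (log2 fold change 0.14, adjusted p = 0.749, edgeR), and its receptor genes Tnfrsf1a (0.15, adjusted p = 0.614) and Tnfrsf1b (0.00, adjusted p = 0.999) did not pass either. Among the substrates with the highest levels, Trem2 (0.10, adjusted p = 0.729) and App (-0.40, adjusted p = 0.107) did not pass. App was called by DESeq2, with library size only and with at least 1 count. It was also called without Drp1 KO library 1 and without both libraries numbered 1. With the replicate block 15 substrates were called, against 12.0% of all genes, adding Axl, Prnp, Cd163, Jag1, App, Lrp1, Lag3 and Sdc4. Without the block, the count was 0 once WT library 2 was left out, and 1 (Vcam1) once WT library 3 was. It was 2 (Aplp2 and Csf1) once Drp1 KO library 3 was left out. Without Drp1 KO library 2 it was 1, a substrate not called with all libraries. Leaving out Drp1 KO library 1 lost the calls of Vcam1 and Csf1. Tnf, its receptors and the 8 genes of the block were chosen for mention after their values were seen.

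Of 12 genes that carry or activate ADAM10 and ADAM17, 11 were tested and 0 were called (edgeR), with 1 at an unadjusted p under 0.05 and 0 called by DESeq2 or limma-voom. The median log2 fold change was -0.01. Furin, the convertase that removes the prodomain, had a log2 fold change of -0.12 (SE 0.162), and Tspan14, a tetraspanin escort of ADAM10, had -0.03 (SE 0.0945). Pacs2, a sorting protein that keeps ADAM17 at the cell surface, was at 95.6, 99.7 and 102 CPM in WT and 87.4, 73.8 and 80.1 CPM in Drp1 KO BMDMs (-0.30, adjusted p = 0.133, edgeR), and was the gene called with the replicate block (adjusted p = 0.0337, edgeR). The other 4 inhibitors, Timp1, Timp2, Timp4 and Reck, had no call (0 at an unadjusted p under 0.05, and 0 by DESeq2 or limma-voom). Timp2 was the abundant one, at 586, 556 and 583 CPM in WT and 573, 493 and 516 CPM in Drp1 KO BMDMs (-0.13, SE 0.0959, adjusted p = 0.600), while Timp1 and Reck stayed under 1 CPM in every library.

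Of 18 genes for proteases that cut the stub left by shedding and for other rhomboid proteins, all were tested and 2 were called (against 3.36% of all genes), both higher (against 2.29%), with a median log2 fold change of 0.15. Rhbdd1, a rhomboid protease, rose from 50.1, 46.2 and 49.0 CPM to 72.9, 73.9 and 64.2 CPM (log2 fold change 0.54, SE 0.0967, adjusted p = 0.0155, edgeR). Aph1c, a gamma-secretase subunit gene, rose from 62.4, 51.4 and 49.0 CPM to 77.4, 75.0 and 72.6 CPM (0.47, SE 0.110, adjusted p = 0.0485). Both calls were lost when WT library 2 or 3 or Drp1 KO library 2 was left out, and that of Aph1c also on leaving out Drp1 KO library 1 or 3 and with median-of-ratios size factors. Sppl2a, which cuts the TNF stub, had 0.32 (adjusted p = 0.165), Derl2 0.06 (adjusted p = 0.835) and Psen2, another gamma-secretase subunit gene, 0.16 (adjusted p = 0.660).

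**Figure D5:**
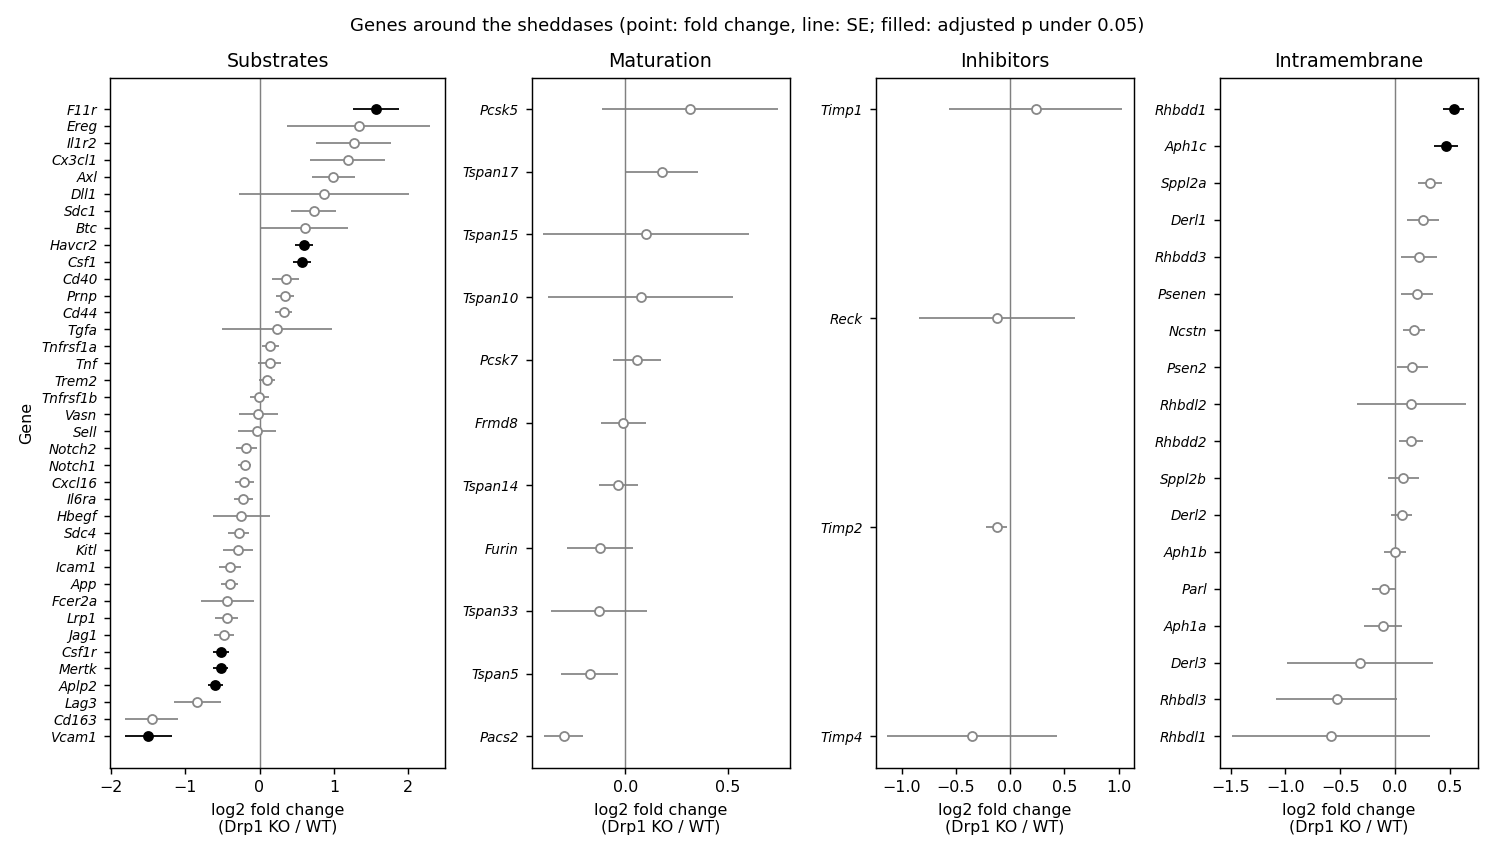
Log2 fold change (Drp1 KO relative to WT, point) and SE (line) of the tested genes for substrates, maturation partners, other inhibitors and intramembrane proteases, each on its own axis, filled where the adjusted p over all genes was under 0.05. Filled points are 7 of 38 substrates, 2 of 18 intramembrane genes and none of 11 maturation genes and 4 inhibitors.

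Of the 28 other ADAM genes in the annotation 11 passed the count filter, and 2 were called (against 3.36% of all genes), with a median log2 fold change of 0.08. Both encode ADAMs without the zinc site shown above. Adam23 rose from 0.906, 0.825 and 0.716 CPM to 2.72, 1.74 and 3.40 CPM (log2 fold change 1.68, SE 0.315, adjusted p = 0.0191, edgeR), and Adam22 fell from 10.8, 14.8 and 15.7 CPM to 8.17, 8.07 and 9.32 CPM (-0.69, SE 0.163, adjusted p = 0.0498). Neither was called when WT library 2 or 3 or Drp1 KO library 3 was left out, or over protein-coding transcripts only, and Adam22 also lost its call on leaving out Drp1 KO library 1 or 2, with limma-voom, with library size only and with length-scaled counts. Adam33 (0.10) and Adam32 (0.06) were not called. Of 24 ADAMTS genes, the secreted relatives that act on matrix, 17 were tested and 0 were called (edgeR), also 0 at an unadjusted p under 0.05 and 0 by DESeq2 or limma-voom. The highest of these were Adamtsl5 (log2 fold change -0.02), Adamtsl4 (-0.18) and Adamts10 (-0.31).

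Genes with a pattern like that of Adam19 or Adam17 were ranked by the root mean square difference of log2 CPM, centred on each gene's mean, over the 6 libraries and 7953 genes averaging 10 CPM or more. Nearest to Adam19 were F13a1 (0.209), which encodes a subunit of coagulation factor XIII, Samd4 (0.251), Rpl27rt (0.269), Clstn1 (0.272) and Galnt10 (0.278), where the median over all these genes was 0.873. They were 2.84-, 2.59-, 2.71-, 2.41- and 2.30-fold lower in Drp1 KO BMDMs, each less than Adam19. The distance takes in the difference between the genotypes, so a large fall alone brings a gene near Adam19. A gene with little change lies far from it by construction. Nearest to Adam17 were Mettl21a (0.0484), H2aj (0.0563), Samd1 (0.0566), Rab11fip3 (0.0626) and Ppp1r18 (0.0660), with a median of 0.294 over all genes. With a prior count of 0.5 in place of 2 the fifth was Mllt6 (also 0.0660). None of these genes is an ADAM, an iRhom or a gene of the lists above.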

How the data were processed

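Poly(A) RNA of 3 WT and 3 Drp1 KO BMDM samples was sequenced with paired-end reads. The authors quantified reads with kallisto 0.46.1 on Ensembl cDNA of GRCm39 and deposited an estimated count and a TPM value per transcript. Neither is scaled between libraries by the authors. The submitters' processing notes name DESeq2 1.44.0. Oxygen is 2.1% in the labels, and their L929 share differs from that of the methods.

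Transcripts were matched by identifier to GENCODE vM39, which gave a gene for 99.4% of 116873 transcripts. The rest held 0.542% to 0.575% of a library's counts and were left out. Estimated counts were summed per gene and rounded, and genes with at least 10 counts in total were tested with edgeR 4.0.16 (R 4.3.3, TMM, quasi-likelihood test, no covariate, 4 residual degrees of freedom). Library totals were 24269850, 26211835 and 28650715 in WT and 23389488, 32231206 and 32153112 in Drp1 KO libraries. A floor of 3 counts was 0.0931 to 0.128 CPM, for counting error only. The effective length was above the length for 17986 transcripts, which bears on TPM. For 1 gene, 3 against 3 libraries cannot give an exact permutation p below 0.1. The lowest chi-square per degree of freedom between libraries was 9.50, so no library was a copy.

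The test was checked on simulated counts of this comparison. Of 200 genes changed 2-fold among 18108, 70.5% were recovered, with 7 false calls (4.73%). The simulated libraries were drawn independently, without an effect of the library number, and the changed genes averaged at least 1 CPM. The check therefore does not cover smaller changes or scarcer genes. Deviations from the group means correlated at 0.510, 0.204 and 0.298 for libraries 1, 2 and 3 of the genotypes (12248 genes), and at -0.443 to 0.326 for libraries of different numbers, the highest being WT library 2 with Drp1 KO library 3. Each same-number value was over 0.1, and the numbers were treated as pairs. WT library 2 deviated more with Drp1 KO library 3 (0.326) than with Drp1 KO library 2 (0.204). These values therefore do not settle how libraries 2 and 3 pair. The pairing by number comes from the data, and no source states it. The calls with the replicate block and the ratios within each number rest on it.

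The 10 genes and all gene lists were chosen with earlier results of these data known. Named were all members and Dnm1l, the called genes of each list (at most 8, mean of at least 1 CPM), the 3 with the highest WT TPM, the 2 highest markers of each cell type and any called marker, and the 5 genes nearest to Adam19 and Adam17. Of the genes listed, 3 were left out of their lists and are not reported here. Alternatives were DESeq2 1.42.0, limma-voom (limma 3.58.1), other scalings and filters, length-scaled counts, the replicate block, leaving out each library, and, added after the data were seen, protein-coding transcripts only and leaving out both libraries numbered 1.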

Additional observations from a re-analysis of the deposited data

How the results depend on the processing

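The 10 genes kept the sign of their fold change under the 16 other settings, except Adam28 (0.028 with length-scaled counts, -0.43 to 0.36 with a library left out). With 3 libraries a group, the call of Adam17, though not the size of its difference, rests on each library. Adam28 had 9 to 38 counts a library, with a wider spread within each group than between them. The causes of the changes below were not tested.

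Pairing the libraries by number (replicate block) raised the calls to 2212 of all genes, 6 of the 10 members, 15 substrates, 1 maturation gene and 5 neutrophil markers, and changed no count of called inhibitors, intramembrane or other ADAM genes. All genes called were 1155 with DESeq2, 1065 with at least 1 count, 1880 without both libraries numbered 1, 2345 by the study's cut-offs on edgeR's values and 181 to 904 with a library left out. Substrates called were 10 with DESeq2 (3 higher and 7 lower), 12 with at least 1 count and 12 without both libraries numbered 1. By those cut-offs 19 substrates were called, and with a library left out 0 to 8. Maturation genes called were 1 without both libraries numbered 1. Intramembrane genes called were 1 with median-of-ratios size factors and 0 to 2 with a library left out. Other ADAM genes called were 1 with limma-voom, with library size only and with length-scaled counts, 0 over protein-coding transcripts only and 0 to 2 with a library left out.

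Signs turned for these uncalled genes. With length-scaled counts the log2 fold change was -0.10 for Adam33 and -0.080 for Adam32. Without both libraries numbered 1 it was 0.12 for Col1a1, and over protein-coding transcripts only it was 3.11 for Thy1. With a library left out it ran from -0.28 to 0.066 for Furin, -0.22 to 0.62 for Timp1, -1.08 to 0.39 for Reck, -0.18 to 0.25 for Adam33, -0.29 to 0.31 for Adam32, -0.16 to 0.10 for Adamtsl5, -0.038 to 0.18 for Adgre1 and -0.31 to 0.19 for Col1a1.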
